A study of Mus musculus with 14 samples.

Results

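The genes encoded by mitochondrial DNA were described here, taken as every row of the count table that lies on the mitochondrial chromosome. They numbered 37 of 55487 rows. By RNA class they were 13 messenger RNA genes, 2 ribosomal RNA genes and 22 transfer RNA genes. By template strand, 12 messenger RNA genes, both ribosomal RNA genes and 14 transfer RNA genes read along the plus strand, and mt-Nd6 and 8 transfer RNA genes read along the minus strand. The coordinates of all 37 equalled those of GENCODE M21 on GRCm38.

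RNA came from cells sorted from mouse colon by flow cytometry, in 14 libraries made with Smart-seq2, which copies polyadenylated RNA into full-length cDNA without keeping strand, and read in single reads of 50 bases. The study asked what accompanies loss of Tsc2, a brake on the growth kinase complex mTORC1, in myeloid cells, first in lamina propria macrophages and then in the neighbouring epithelium. The group cre_LP held macrophages of Tsc2fl/fl Lyz2cre/+ mice (libraries 8, 9 and 10, all male). The group wt_LP held macrophages of Tsc2fl/fl Lyz2+/+ mice (libraries 2 and 4, female, and 6, male). The group cre_EC held CD44+ EpCAM+ epithelial cells of Tsc2fl/fl Lyz2cre/+ mice (library 5, female, and 8, 9 and 10, male). The group wt_EC held the same cells of Tsc2fl/fl Lyz2+/+ mice (libraries 2 and 4, female, and 6 and 7, male). All groups carried floxed Tsc2 on both alleles. The deletion and the recombinase allele always went together and cannot be told apart. Lyz2-cre is active in myeloid cells, so epithelial cells of cre mice were neighbours of recombined cells. By their titles 4 mice of either genotype were used, but the series text counts 3 wt and 4 cre mice, so some libraries may share an animal, and p-values measure only the spread between these libraries.

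Mitochondrial DNA is read from promoters in the control region into long transcripts of either strand, and transfer RNAs between the other genes mark the points where these are processed. The messenger RNAs encode core subunits of respiratory complexes I, III and IV and of ATP synthase, and the ribosomal RNAs build the mitochondrial ribosome, whose proteins come from nuclear genes. Most vertebrate mitochondrial messenger RNAs carry short poly(A) tails, which complete the stop codon of those genes that end in T or TA.

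Library totals ran between 7269103 and 9364551 counts. Levels are given in CPM, the usual unit of counts relative to library size, with library sizes scaled by trimmed means of M-values (TMM), and values follow the library numbers in the order given for each group. The scaled sizes ran between 8511893 and 11531613 in cre_EC, against totals of 8454918 to 9364551. In wt_EC they ran between 6986004 and 9333643, against totals of 7910342 to 8614305. Overlap of CPM between groups thus rests on these scaled sizes. Csf1r and Epcam followed the labels of the sorts. Csf1r, a macrophage growth factor receptor, had 1474 to 2229.6 CPM in macrophages and 2.51 to 15.3 CPM in epithelial cells. Epcam, an epithelial adhesion molecule, had 3.48 to 15.3 CPM in macrophages and 354 to 613 CPM in epithelial cells. The 13 macrophage markers summed to 21777 to 25986 CPM in cre_LP and 17403 to 21799 CPM in wt_LP. Markers of B and plasma cells, 10 in number, summed to 6968 to 10977 CPM in cre_LP and 3562 to 13564 CPM in wt_LP. Macrophage libraries thus also held markers of other cells, whose part in the results was not tested. Tsc2 had 32.7, 35.7 and 26.9 CPM in cre_LP, against 42.9, 38.1 and 25.6 CPM in wt_LP. These ranges overlapped. The Tsc2 row sums the whole gene, so it checks the genotype labels only in part.

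The method reaches RNA by priming with oligo-dT, so the letters at which poly(T) can pair are shown first. Sequences are those of GENCODE M21 transcripts on GRCm38, written 5′ to 3′. Each ribosomal RNA is shown around its longest run of A, in capitals, at chrM:1462-1521 for mt-Rnr2, the large-subunit RNA, and at chrM:678-737 for mt-Rnr1, the small-subunit RNA.
mt-Rnr2: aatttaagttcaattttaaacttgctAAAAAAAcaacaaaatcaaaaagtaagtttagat
mt-Rnr1: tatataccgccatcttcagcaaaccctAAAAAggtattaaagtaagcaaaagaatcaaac
The longest run held 7 A in mt-Rnr2 and 5 A in mt-Rnr1. Among messenger RNA genes it ran from 3 A in mt-Nd6 to 8 A in mt-Nd2, with 5 A in mt-Co3 and in mt-Atp6. The ends of 3 messenger RNA genes are shown with the encoded letters of the stop codon in capitals, at chrM:15229-15288 for mt-Cytb, chrM:11485-11544 for mt-Nd4 and chrM:6813-6872 for mt-Co1.
mt-Cytb: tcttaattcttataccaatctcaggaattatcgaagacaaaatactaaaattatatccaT
mt-Nd4: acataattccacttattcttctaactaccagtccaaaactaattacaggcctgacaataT
mt-Co1: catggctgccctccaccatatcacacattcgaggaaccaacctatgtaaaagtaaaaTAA
In mt-Cytb and mt-Nd4 the DNA supplies a single T and the tail supplies the rest, whereas mt-Co1 encodes a whole stop codon.

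Counts that cannot be told apart from those of mitochondrial messenger RNAs stood in rows of nuclear copies. A stretch of chromosome 1 on the minus strand, between bases 24611535 and 24616197, holds copies of 7 mitochondrial messenger RNA genes, and the letters of most of them are the same. The starts of 2 pairs are shown because their rows went opposite ways. They lie at chrM:7013-7072 (mt-Co2) and chr1:24615506-24615565, minus (Gm28661), and at chrM:10167-10226 (mt-Nd4) and chr1:24612351-24612410, minus (Gm28439).
mt-Co2: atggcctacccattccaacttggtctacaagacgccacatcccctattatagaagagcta
Gm28661: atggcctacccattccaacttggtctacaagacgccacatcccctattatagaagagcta
mt-Nd4: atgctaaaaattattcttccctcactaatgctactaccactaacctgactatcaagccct
Gm28439: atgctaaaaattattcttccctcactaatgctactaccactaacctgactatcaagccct
Gm28661 did not differ from mt-Co2 over 681 aligned bases and held 4169 to 13850 counts a library, while the mt-Co2 row was at 0 in every library. Gm28439 did not differ from the first 876 bases of mt-Nd4 and held 0 to 4 counts, while mt-Nd4 held its counts in its own row. Within the shared stretch a 50-base read could not be assigned by its letters, and how such reads were counted is not given in the sources used here.

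The other pairs fell on either side. The row of mt-Atp6 was at 0 in every library against 23135 to 86910 counts in Gm10925, and that of mt-Co3 held 0 or 1 count against 29261 to 129757 in Gm28437. Both copies had no difference over their aligned length. The mt-Nd4l row held the counts of its pair, with 0 or 1 in Gm10222. In 2 pairs both rows held counts. mt-Nd3 kept 49.7 to 54.4% of the counts it shares with Gm28438, which differs by T3C, counted from the first base of the gene. mt-Co1 held 50.3 to 60.5% of the counts of its pair with Gm29216, a copy of its last 492 bases with 6 differences between T1056A and A1066T. Because this copy covers only part of the gene, counts of the mt-Co1 row may come from bases outside it. mt-Atp8 was at 0 throughout, with no row of a chromosome 1 copy. Rows at 0 in a library allow up to 3 counts, or 0.260 to 0.513 CPM, as counting error only. The sum of the mitochondrial row and its chromosome 1 copy is therefore given beside the deposited row for these genes. Such a sum would also hold any RNA made from the copy itself. It leaves out partial copies on chromosome 2. Of these, Gm13341 shares 35.3% of the 50-base windows of mt-Co2 and held 1185 to 3988 counts. Gm13340 shares 27.5% of those of mt-Co1 and held 11035 to 38985 counts. Summed levels of these genes may thus be too low.

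**Figure D1:**
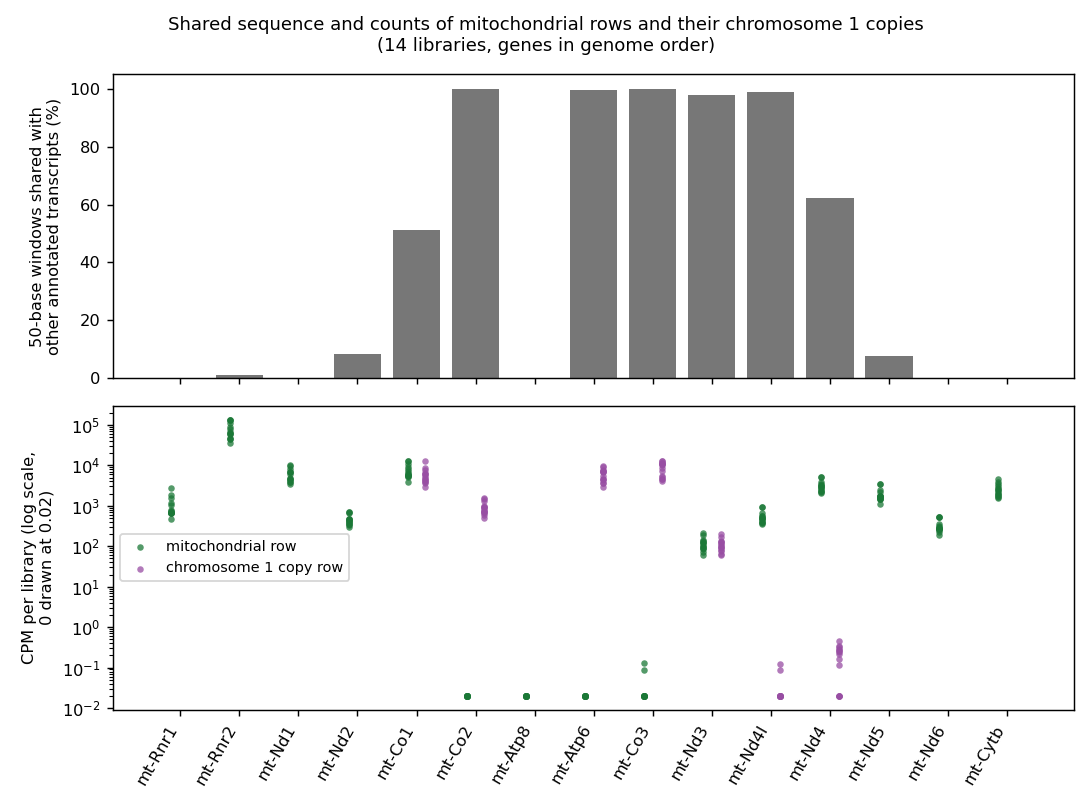
Counts of mitochondrial messenger RNA genes and of their chromosome 1 copies, with genes in genome order. The upper panel gives the percentage of 50-base windows of each gene that also occur in the annotated transcripts of nuclear genes. The lower panel gives CPM on a log axis for each library in the mitochondrial row and in the copy row, with 0 drawn at 0.02. The rows of mt-Co2, mt-Atp6 and mt-Co3 lie at or near 0 while their copies hold all or nearly all counts, and mt-Nd4l and mt-Nd4 show the opposite.

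The mitochondrial rows took 5.997 to 9.83% of counts in cre_LP, 4.51 to 6.45% in wt_LP, 10.4 to 10.7% in cre_EC and 11.6 to 18.1% in wt_EC. mt-Rnr2 alone made up 69.5 to 83.7% of these counts and exceeded mt-Rnr1 by 49.02 to 117-fold in counts. Per kilobase, with chromosome 1 copies summed, mt-Rnr2 had the highest level in every group, followed by mt-Co3, a core subunit of cytochrome c oxidase. Averaged over the 4 groups, CPM per kilobase were 47814 for mt-Rnr2, 10370.4 for mt-Co3, 8388 for mt-Atp6, 8351 for mt-Co1 and 6024 for mt-Nd1. Then came mt-Nd4 at 2274, mt-Cytb at 2170.3, mt-Nd4l at 1797 and mt-Co2 at 1297 CPM per kilobase. The lower end held mt-Rnr1 at 1039, mt-Nd5 at 1034, mt-Nd3 at 637, mt-Nd6 at 616 and mt-Nd2 at 442 CPM per kilobase. No gene moved by more than 2 ranks between groups. Neighbours in the order such as mt-Atp6 and mt-Co1, mt-Nd4 and mt-Cytb, mt-Rnr1 and mt-Nd5, and mt-Nd3 and mt-Nd6 changed places between groups. Counts in chromosome 2 copies of mt-Co1, mt-Co2 and mt-Nd2 are left out of these levels. By longest run of A, mt-Nd2 at the lower end held 8, while mt-Co3 and mt-Atp6 near the top held 5, as did mt-Rnr1. How far these levels follow poly(A) priming and how far abundance was not tested.

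Transfer RNA genes, whose products carry no long poly(A) tail, were nearly out of reach. Their 22 rows held 131 to 540 counts a library, 0.0017 to 0.0063% of the total. Of these counts 78.0 to 87.4% fell in the 8 minus-strand genes. The libraries keep no strand, so a read from a plus-strand transcript that runs across a minus-strand gene counts there too. mt-Te, the glutamate transfer RNA, and mt-Tp, the proline one, had the highest levels of the 22 in every group. Both read along the minus strand, at chrM:14071-14139 and chrM:15356-15422, beside mt-Cytb on its upstream side and past the threonine transfer RNA on its downstream side. They are shown whole because their later results differ.
mt-Te: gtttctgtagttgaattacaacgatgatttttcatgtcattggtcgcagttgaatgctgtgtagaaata
mt-Tp: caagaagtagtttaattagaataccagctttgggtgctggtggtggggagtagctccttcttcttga
Rows of mt-Ty, mt-Ts1, mt-Td, mt-Tk, mt-Tg and mt-Ts2 were at 0 in every library. Another 7 (mt-Tf, mt-Tv, mt-Ti, mt-Tw, mt-Tr, mt-Th and mt-Tl2) did not exceed 1.23 CPM in any library and passed the filter on low counts in no comparison.

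**Figure D2:**
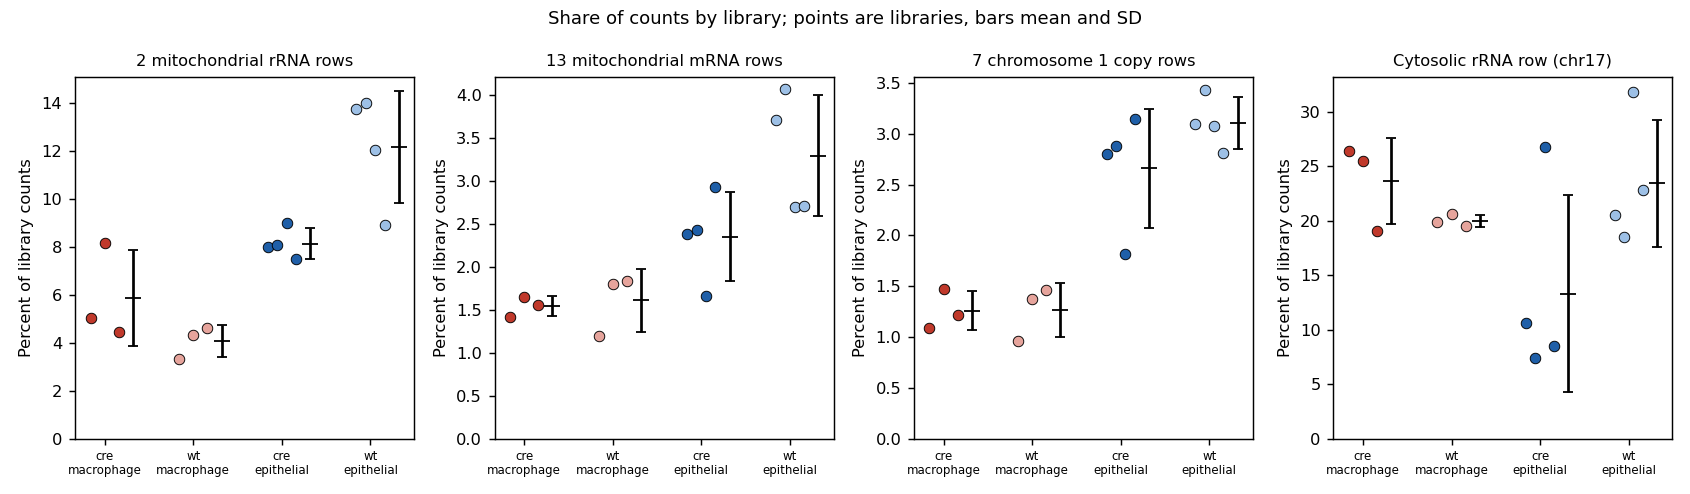
Percentage of library counts in the 2 mitochondrial ribosomal RNA rows, the 13 mitochondrial messenger RNA rows, the 7 chromosome 1 copy rows and the cytosolic ribosomal RNA row. Points are libraries, and bars give the mean and SD of each group. Mitochondrial ribosomal RNA averaged 8.14% in cre_EC and 12.2% in wt_EC, and the cytosolic ribosomal RNA of cre_EC ran between 7.37 and 26.7%.

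In the epithelium, cre libraries held less mitochondrial RNA than wt libraries. Of 20 mitochondrial genes tested, 10 fell and 0 rose, and the other 10 also had negative estimates, with a median log2 change of -0.75. Over all 13553 genes tested, 9.17% were called, 5.64% higher and 3.53% lower, with a median of -0.05. The fall took in both ribosomal RNAs, mt-Nd2, mt-Nd4, mt-Nd4l, mt-Nd5 and mt-Nd6 of complex I, mt-Cytb of complex III, mt-Co1 of complex IV and the transfer RNA gene mt-Te. In bulk samples, fewer cells of a type and less RNA per cell cannot be told apart.

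The ribosomal RNAs come first. mt-Rnr1 stood at 669, 758, 775 and 709 CPM in cre_EC, against 1592, 1821, 2725 and 1047 CPM in wt_EC. The groups averaged 728 ± 48.2 CPM in cre_EC and 1796 ± 699 CPM in wt_EC (SD, n = 4 each). Every cre_EC library lay below every wt_EC library, and the log2 change was -1.32 (SE 0.25, adjusted p = 0.0163), with edgeR's quasi-likelihood test adjusted by Benjamini-Hochberg over all genes, as for all adjusted p here. mt-Rnr2 stood at 64846, 88756, 60708 and 63400.0 CPM in cre_EC, against 130765, 130069, 133581 and 79513 CPM in wt_EC. Here cre_EC library 8 lay above wt_EC library 7, and all other cre_EC libraries lay below wt_EC; the log2 change was -0.78 (SE 0.17, adjusted p = 0.0132). The summed share of counts of both averaged 8.14 ± 0.634% in cre_EC and 12.2 ± 2.35% in wt_EC (SD, n = 4 each), a difference of -4.04 percentage points (p = 0.0571 in a two-sided exact permutation test, adjusted over 12 tests 0.171, where 0.0286 is the smallest p for 4 against 4). The log2 ratio of mt-Rnr1 to mt-Rnr2 counts averaged -6.56 in cre_EC and -6.10 in wt_EC (exact p = 0.0571, adjusted 0.171).

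Complex I takes electrons from NADH, and mitochondrial DNA encodes 7 of its subunits. mt-Nd6, the sole messenger RNA gene read along the minus strand, stood at 261, 231, 271 and 260.0 CPM in cre_EC, against 536, 526, 531 and 349 CPM in wt_EC. mt-Nd5, which lies opposite it and overlaps its end, stood at 1505, 1544, 1705 and 1439 CPM in cre_EC, against 3507, 3387, 2401 and 2159 CPM in wt_EC. Neither gene overlapped between the groups, and the log2 changes were -0.93 (SE 0.13, adjusted p = 0.00648) and -0.90 (SE 0.14, adjusted p = 0.00648). Because the libraries keep no strand, the mt-Nd6 row may also hold reads of plus-strand transcripts. mt-Nd2 stood at 352, 295, 402 and 357 CPM in cre_EC, against 690.4, 705, 677 and 446 CPM in wt_EC, again without overlap, and changed by -0.85 (SE 0.14, adjusted p = 0.00701). mt-Nd4 stood at 2296, 2148, 3054 and 2352 CPM in cre_EC, against 5248, 5190.4, 3517 and 2699.6 CPM in wt_EC. mt-Nd4l, whose reading frame runs into that of mt-Nd4, stood at 385, 386, 507 and 396 CPM in cre_EC, against 909, 916, 561 and 464 CPM in wt_EC. In both, wt_EC library 7 lay within the range of cre_EC, and the log2 changes were -0.77 (SE 0.20, adjusted p = 0.0421) and -0.78 (SE 0.21, adjusted p = 0.0465). The remaining subunit genes did not pass the test. mt-Nd1 stood at 6730.0, 4429, 7889.7 and 6041 CPM in cre_EC, against 9767, 10283, 6891 and 6748 CPM in wt_EC, a log2 difference of -0.44 (SE 0.18, adjusted p = 0.140). mt-Nd3 stood at 102, 102, 124 and 147 CPM in cre_EC, against 194, 214, 138 and 122 CPM in wt_EC, a log2 difference of -0.51 (SE 0.18, adjusted p = 0.0834). Both overlapped between the groups.

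mt-Cytb encodes cytochrome b, the complex III subunit of mitochondrial DNA, and stood at 2289, 1868, 2755 and 2074 CPM in cre_EC, against 3928, 4569, 3018 and 3368 CPM in wt_EC. Its groups did not overlap in scaled CPM, and its log2 change was -0.74 (SE 0.14, adjusted p = 0.00861). mt-Co1, the catalytic subunit of cytochrome c oxidase, stood at 5856, 5554, 7381 and 6021 CPM in cre_EC, against 10910.4, 12557, 12793 and 8115 CPM in wt_EC. All cre_EC libraries lay below all wt_EC libraries, with a log2 change of -0.85 (SE 0.14, adjusted p = 0.00701), and of -0.83 (SE 0.15, adjusted p = 0.00856) with its copy row summed. For the genes listed at or near 0 only the sums with the chromosome 1 copy rows give a level. For mt-Co2, the subunit that receives electrons from cytochrome c, the sum stood at 695, 608, 942 and 701 CPM in cre_EC, against 1321, 1515, 1436 and 993 CPM in wt_EC. It changed by -0.85 (SE 0.15, adjusted p = 0.00784) without overlap, and by -0.84 with the chromosome 2 copy also summed. For mt-Co3 the sum stood at 10549, 7155, 11383 and 10373 CPM in cre_EC, against 11587, 12466, 12968 and 10511 CPM in wt_EC. It overlapped and differed by -0.28 (SE 0.13, adjusted p = 0.176). For mt-Atp6, part of the proton channel of ATP synthase, the sum stood at 6719, 5572, 7145 and 6939 CPM in cre_EC, against 8854, 9506, 7702 and 7345 CPM in wt_EC. These ranges did not overlap, but the log2 difference of -0.35 (SE 0.11, adjusted p = 0.0521) missed the threshold. In shares of unscaled counts the groups overlapped for mt-Cytb, mt-Co1 and the mt-Co2 and mt-Atp6 sums, with cre_EC library 9 above a wt_EC library. For mt-Cytb the counts were 31409 of 9353595 in cre_EC library 9 and 21082 of 7910342 in wt_EC library 6. As deposited, the 13 messenger RNA rows together took 2.35 ± 0.522% of counts in cre_EC and 3.30 ± 0.703% in wt_EC (SD, n = 4 each), overlapping, with exact two-sided permutation p = 0.0857 and adjusted p = 0.20.

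**Figure D3:**
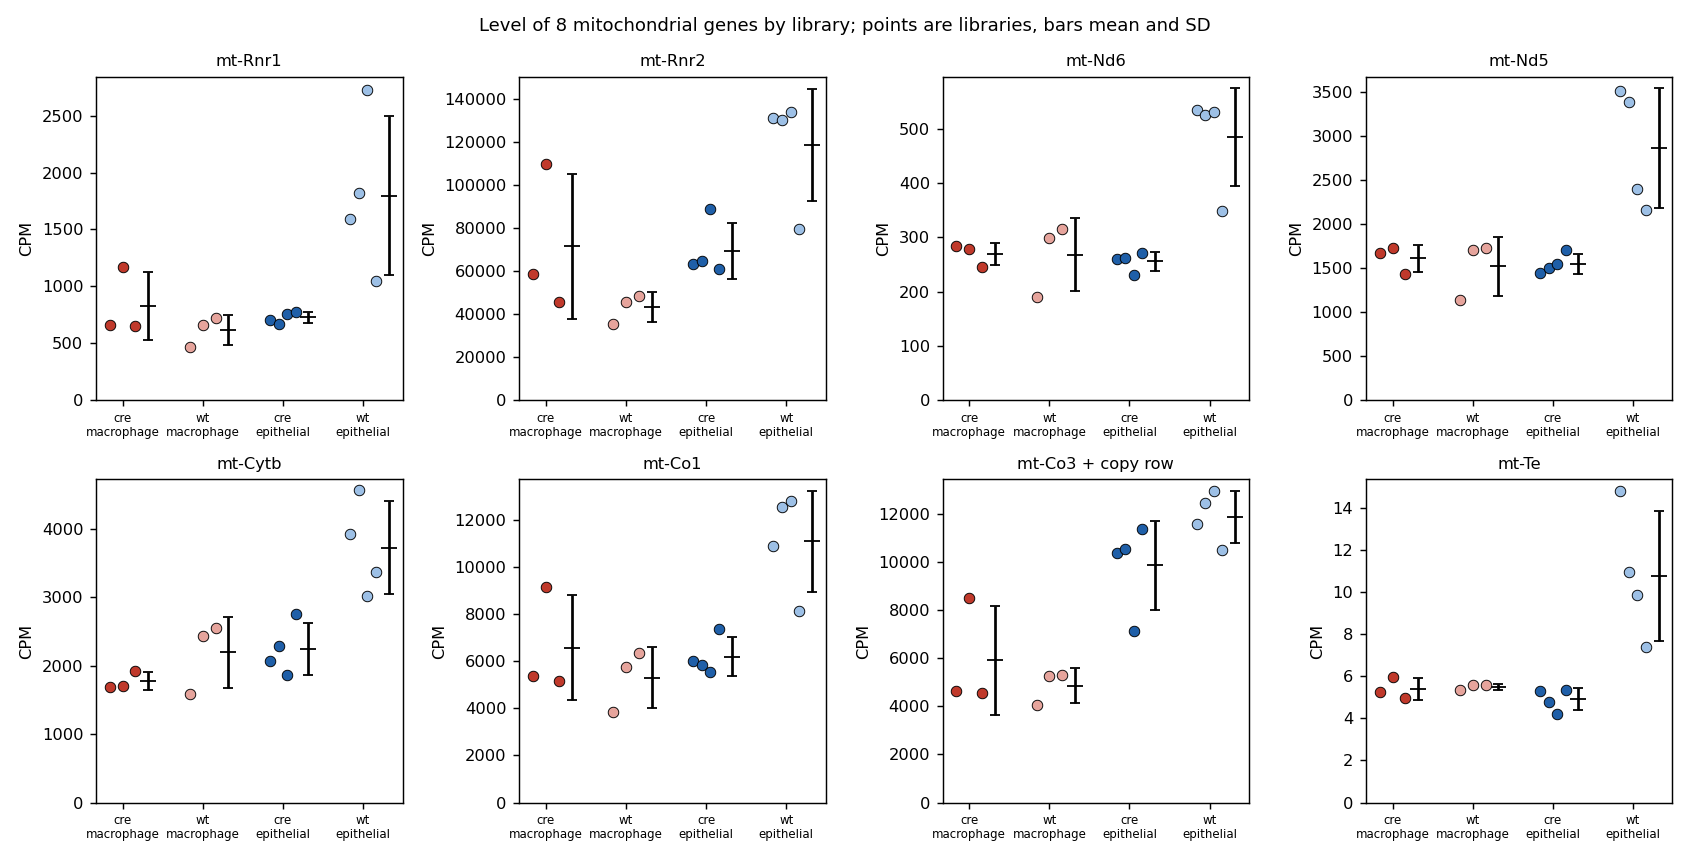
Levels in CPM of mt-Rnr1, mt-Rnr2, mt-Nd6, mt-Nd5, mt-Cytb, mt-Co1, mt-Co3 summed with its copy row, and mt-Te in each library. Points are libraries, and bars give the mean and SD of each group. In these scaled CPM, cre_EC libraries lie below wt_EC libraries without overlap for mt-Rnr1, mt-Nd6, mt-Nd5, mt-Cytb, mt-Co1 and mt-Te. Macrophage groups overlap.

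The transfer RNA genes moved unequally. mt-Te stood at 4.77, 4.23, 5.35 and 5.30 CPM in cre_EC, against 14.8, 10.9, 9.88 and 7.39 CPM in wt_EC, and its log2 change was -1.14 (SE 0.23, adjusted p = 0.0109) without overlap. mt-Tp stood at 19.3, 13.2, 14.04 and 14.6 CPM in cre_EC, against 19.1, 18.8, 16.7 and 11.1 CPM in wt_EC, and its log2 difference was -0.11 (SE 0.19, adjusted p = 0.740). The highest of the 8 epithelial values of mt-Tp was in cre_EC library 5, and the groups overlapped. mt-Tl1, the leucine transfer RNA behind mt-Rnr2, had 0.548 to 1.04 CPM in cre_EC and 1.29 to 2.24 CPM in wt_EC, and its log2 difference of -1.08 (SE 0.38, adjusted p = 0.0847) was not called. The other 6 tested, mt-Tq, mt-Ta, mt-Tn, mt-Tm, mt-Tc and mt-Tt, gave log2 differences between -0.67 and -0.31, none called.

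Across the 12 messenger RNA genes with counts, copies summed, the log2 changes in epithelium ran between -0.93 and -0.28 with a median of -0.77. The smallest in size belonged to mt-Co3, mt-Atp6 and mt-Nd1, which had high levels per kilobase. Across these genes the correlation of the log2 change with the log2 level per kilobase was Pearson's r = 0.62 and Spearman's rho = 0.74, as a description over genes of the same libraries. Summing the copies was chosen after seeing the data. Over the 11 rows as deposited that were tested, transfer RNA left out, 9 messenger and 2 ribosomal RNA genes, r was 0.16 and rho 0.32. That set adds the ribosomal RNAs and lacks mt-Co2, mt-Co3 and mt-Atp6, so its lower values cannot be assigned to summing alone. Over the 12 summed genes r with gene length was -0.33, with GC content -0.06, with the longest run of A -0.10 and with order along the genome -0.27.

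**Figure D4:**
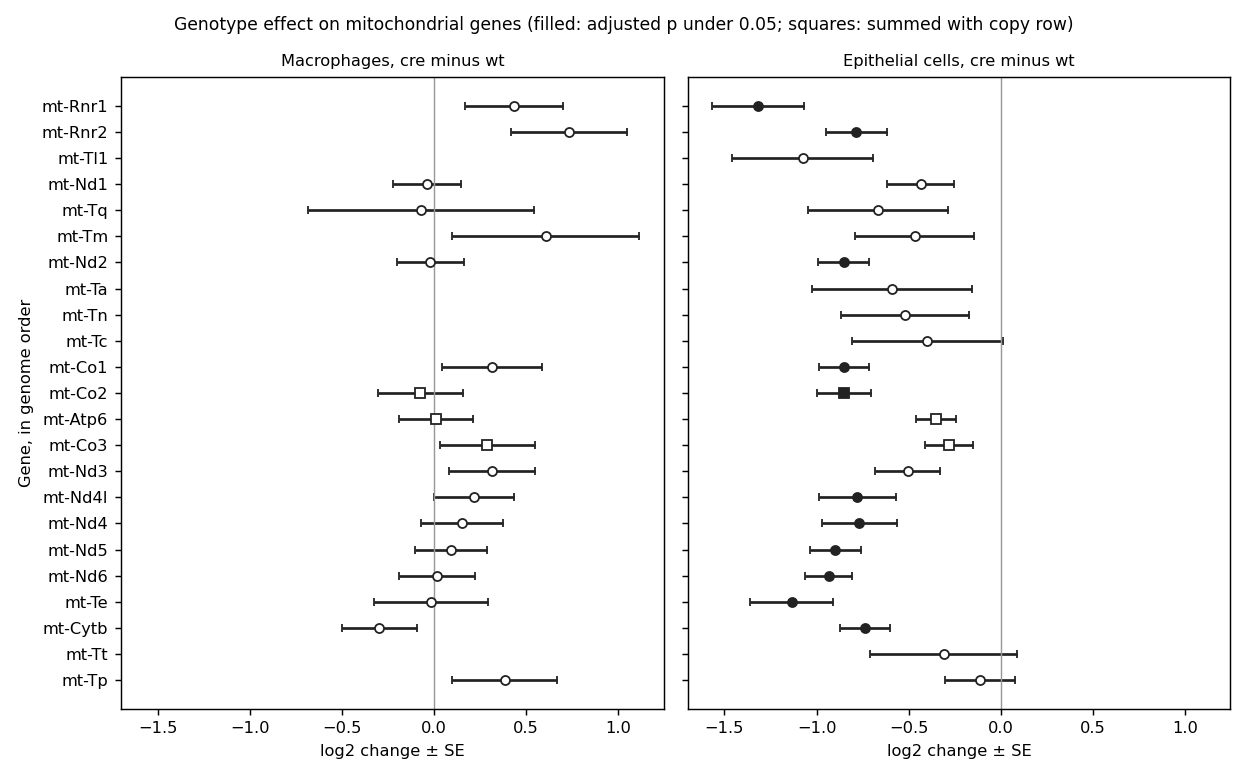
Log2 change, cre over wt, with its SE, for each mitochondrial gene tested in macrophages (left) and epithelial cells (right). Filled symbols passed an adjusted p of 0.05, and squares are sums of the mitochondrial row with its chromosome 1 copy. In epithelial cells all estimates are negative, between -1.32 for mt-Rnr1 and -0.11 for mt-Tp, and in macrophages none is filled.

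Other features of the epithelial libraries also varied, with overlap between the genotypes. The cytosolic ribosomal RNA row took 7.37, 26.7, 8.52 and 10.6% of counts in cre_EC, against 20.6, 18.5, 31.8 and 22.8% in wt_EC. With its log2 share as a covariate, no gene of 13553 was called in edgeR's test, against 1665 at an unadjusted p under 0.05. The estimates of all 9 mitochondrial messenger RNAs tested were larger in size than without it, and those of both ribosomal RNAs smaller. In that fit mt-Cytb was at -1.02 (SE 0.14, adjusted p = 0.0956), mt-Nd6 at -1.02 (SE 0.17, adjusted p = 0.10) and mt-Nd1 at -0.88 (SE 0.15, adjusted p = 0.10). mt-Rnr2 was at -0.55 (SE 0.19, adjusted p = 0.287), against -0.78 without the covariate. mt-Rnr1 was at -1.10 (SE 0.39, adjusted p = 0.328), against -1.32. The part of the cytosolic ribosomal RNA share in the result was not tested. Macrophage markers, 13 in number with none at 0 in either group, summed to 49.1 to 92.9 CPM in cre_EC and 85.2 to 161 CPM in wt_EC. Of 12 tested, 4 were lower in cre_EC and 0 higher, where 3.53% of all genes were lower and 5.64% higher; their part in the result was not tested. Calls ended when libraries of males alone were fitted, 3 against 2, with 0 of the mitochondrial genes and 5 of all genes called. They fell to 1 (mt-Nd6) when all 14 libraries shared an estimate of spread, and to 6 without cre_EC library 5 or without cre_EC library 9. Over 24 alternatives the estimates of the 10 genes stayed below 0. Those of mt-Nd6 ran between -1.06 and -0.66, those of mt-Co1 between -0.97 and -0.74, and those of mt-Nd4l between -0.98 and -0.27.

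In macrophages no mitochondrial gene passed the test. Of 15 tested, edgeR, DESeq2 and limma each called 0, and 1 (mt-Rnr2) had an unadjusted p under 0.05. On simulated data with a log2 change of 1 set, this fit recovered 23% of the changed genes, against 84% in epithelium. A change of that size would thus mostly be missed in such genes. They were drawn at random above a low level and do not stand for the mitochondrial rows. Among the messenger and ribosomal RNA rows tested, the SE ran from 0.18 for mt-Nd2 to 0.31 for mt-Rnr2. Because recovery differed, the counts of calls cannot be compared between the cell types. The median log2 difference was 0.15 and the range -0.30 to 0.73. Of all 14087 genes tested, 0.944% were called, 0.731% higher and 0.213% lower.

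The ribosomal RNAs had the largest estimates among the rRNA and messenger RNA rows. mt-Rnr2 stood at 109688, 45689 and 58789.6 CPM in cre_LP, against 35571, 45631 and 48607 CPM in wt_LP. mt-Rnr1 stood at 1173, 652 and 661 CPM in cre_LP, against 469, 663 and 719.8 CPM in wt_LP. Library 8 of cre_LP was the highest of all macrophage libraries in both, and library 9 lay within the range of wt_LP in both. The log2 differences were 0.73 (SE 0.31, adjusted p = 0.374) and 0.43 (SE 0.26, adjusted p = 0.558). Their share of counts averaged 5.88 ± 2.01% in cre_LP and 4.08 ± 0.679% in wt_LP (SD, n = 3 each), with p = 0.20 in the exact test and 0.30 adjusted. The log2 ratio of ribosomal to messenger RNA counts was 1.88 ± 0.402 in cre_LP and 1.35 ± 0.112 in wt_LP (SD, n = 3 each). The messenger RNA share averaged 1.54 ± 0.117% in cre_LP and 1.61 ± 0.364% in wt_LP (SD, n = 3 each, exact p = 0.80). The groups did not overlap in the ratio, and the exact two-sided p of 0.10 is the smallest that 3 against 3 allows (adjusted 0.20).

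Among complex I genes, mt-Nd1 stood at 4532, 3956 and 3853 CPM in cre_LP, against 3371, 4827 and 4559.7 CPM in wt_LP. mt-Nd2 stood at 461, 410.2 and 395 CPM in cre_LP, against 335, 481 and 477 CPM in wt_LP. mt-Nd3 stood at 123, 73.5 and 92.8 CPM in cre_LP, against 60.1, 89.4 and 85.2 CPM in wt_LP. All 3 overlapped, with log2 differences of -0.04, -0.02 and 0.31. mt-Nd4 stood at 3768, 2609.9 and 2925 CPM in cre_LP, against 2079.6, 3232 and 3115 CPM in wt_LP. mt-Nd4l stood at 669, 445 and 501 CPM in cre_LP, against 358, 547 and 493 CPM in wt_LP. Library 8 was again the highest in both, with log2 differences of 0.15 and 0.22. mt-Nd5 stood at 1724, 1437 and 1676 CPM in cre_LP, against 1136, 1707 and 1725 CPM in wt_LP. mt-Nd6 stood at 279, 246 and 284 CPM in cre_LP, against 191, 299 and 316 CPM in wt_LP. These overlapped closely, with log2 differences of 0.09 and 0.02.

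mt-Cytb stood at 1700.5, 1928 and 1688 CPM in cre_LP, against 1593, 2431 and 2552 CPM in wt_LP. It had the lowest estimate, -0.30 (SE 0.20, adjusted p = 0.620), with overlap. mt-Co1 stood at 9139, 5172 and 5393 CPM in cre_LP, against 3837, 5757 and 6335 CPM in wt_LP, and its log2 difference was 0.31 (SE 0.27, adjusted p = 0.713). For the sums with copy rows, mt-Co2 stood at 791, 725 and 663 CPM in cre_LP, against 509, 875 and 924 CPM in wt_LP. mt-Co3 stood at 8509, 4558 and 4656 CPM in cre_LP, against 4038, 5247 and 5313 CPM in wt_LP. mt-Atp6 stood at 4536, 3645 and 3681 CPM in cre_LP, against 2979.7, 4297 and 4574 CPM in wt_LP. All overlapped, and their log2 differences were -0.07, 0.29 and 0.01. Of the transfer RNA genes 4 could be tested. mt-Tm, the methionine transfer RNA, had 1.87 to 2.07 CPM in cre_LP and 1.19 to 1.33 CPM in wt_LP, and mt-Tp stood at 8.89, 8.58 and 9.87 CPM in cre_LP, against 5.82, 7.08 and 8.24 CPM in wt_LP. Neither overlapped, yet their log2 differences of 0.61 and 0.38 were not called. mt-Te stood at 5.99, 4.98 and 5.25 CPM in cre_LP, against 5.35, 5.61 and 5.58 CPM in wt_LP. Its log2 difference was -0.02, and that of mt-Tq was -0.07. Markers of fibroblasts and smooth muscle summed to 949 to 2752 CPM in cre_LP and 3176 to 5331 CPM in wt_LP. Dendritic cell markers summed to 1552 to 1769 CPM in cre_LP and 2185 to 3308 CPM in wt_LP. T cell and innate lymphoid markers summed to 227 to 316 CPM in cre_LP and 108 to 134 CPM in wt_LP, though 5 of 7 tested had negative estimates. Sums of B and plasma cell markers overlapped between the groups. The part of these cells in the values was not tested.

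The genotype effect differed between the cell types for 1 mitochondrial gene. The difference of log2 changes, macrophages minus epithelium, was 1.73 (SE 0.38, adjusted p = 0.0467) for mt-Rnr1. All 20 genes tested had positive values, with a median of 0.95, but no other was called, against 0.702% of 16375 genes called in all (0.47% higher). Values of the next were 1.49 (SE 0.37, adjusted p = 0.0766) for mt-Rnr2, 0.97 (SE 0.26, adjusted p = 0.0956) for mt-Nd5 and 0.93 (SE 0.25, adjusted p = 0.0974) for mt-Nd6. The call of mt-Rnr1 was made in 8 of 30 alternative settings, with adjusted p between 0.0024 and 0.50. Leaving out any of 11 libraries brought the count of mitochondrial genes called to 0, the exceptions being cre_LP library 9, wt_EC library 7 and wt_LP library 6. With the number as a replicate block it was also 0. On simulated data with a difference of 1 on the log2 scale set, this fit recovered 20% of the changed genes.

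Macrophage libraries held a smaller share of mitochondrial RNA than epithelial libraries. Of 20 genes tested, 16 were lower in macrophages and 0 higher, with a median log2 difference of -0.69. In this comparison 73.7% of all genes were called, 39.4% higher and 34.3% lower, with a median of 0.07, so a call says little by itself. The share of counts in messenger RNA rows averaged 1.58 ± 0.245% in macrophages (SD, n = 6) and 2.83 ± 0.763% in epithelial cells (SD, n = 8), with exact two-sided permutation p = 0.00233 and adjusted p = 0.0140. That of the ribosomal RNA rows averaged 4.98 ± 1.66% in macrophages and 10.2 ± 2.68% in epithelial cells, with exact p = 0.00233 and adjusted p = 0.0140. Both shares overlapped between the cell types. The adjusted p of both became 0.0513 on leaving out any of cre_LP library 9 or 10 or wt_LP library 2, 4 or 6, and 0.238 in males alone. Macrophage and epithelial libraries of the same number may come from the same mouse. On the differences within the 6 shared numbers, the exact test gave p = 0.03125 for both shares, with adjusted p = 0.171, so neither passed the threshold with this replicate block.

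The size varied between genes. Among messenger RNAs the largest differences were -1.01 (SE 0.15, adjusted p = 1.48e-05) for mt-Co3 and -0.91 (SE 0.12, adjusted p = 2.17e-06) for mt-Atp6, both summed with copies, and -0.80 (SE 0.15, adjusted p = 0.000104) for mt-Nd1. The ribosomal RNAs followed with -0.71 (SE 0.19, adjusted p = 0.00290) for mt-Rnr2 and -0.68 (SE 0.19, adjusted p = 0.00426) for mt-Rnr1. Also called were mt-Nd3 at -0.70, mt-Cytb at -0.55, mt-Co1 at -0.49, mt-Nd5 at -0.43 and mt-Nd6 at -0.39, and the mt-Co2 sum at -0.40. mt-Nd2, mt-Nd4 and mt-Nd4l lay between -0.14 and -0.12 and were not called. The transfer RNA genes reached further, with mt-Tn, the asparagine transfer RNA, at -2.07, mt-Tt at -1.53, mt-Tc at -1.50, mt-Ta at -1.16 and mt-Tp at -0.99. mt-Tm at -0.96, mt-Tq at -0.92 and mt-Te at -0.42 were called too, while mt-Tl1 at -0.33 was not. With the trend on GC content and length removed, all 20 were lower, where the median of all genes stood at -0.25.

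Nuclear genes were taken from 6 lists, on maintenance and on transcription of mitochondrial DNA, on processing of its RNA, on modification of its transfer RNA, on ribosome assembly and on nuclear regulators. In epithelium, 5 of 96 such genes tested were higher and 2 lower, where 5.64% of all genes were higher and 3.53% lower, and their median log2 change was -0.00265. By list, 1 of 17 for maintenance, 1 of 9 for transcription and 2 of 21 for processing were higher. Of 16 for transfer RNA modification 1 was higher and 1 lower, and of 12 regulators 1 was lower. The other list held 21 genes tested for ribosomal RNA modification and ribosome assembly, with a median of 0.07. Mrpl12, a mitochondrial ribosomal protein, rose by 0.68 (SE 0.11, adjusted p = 0.00648). Ptcd2, a factor in processing of mitochondrial RNA, rose by 0.65 (SE 0.12, adjusted p = 0.00861), and Tbrg4, another RNA-binding protein of mitochondria, by 0.66 (SE 0.16, adjusted p = 0.0189). Atad3a, a membrane ATPase near the nucleoid, rose by 0.47 (SE 0.10, adjusted p = 0.0115), and Mto1, which modifies transfer RNA, by 0.64 (SE 0.18, adjusted p = 0.0374). Gtpbp3, the partner of Mto1 in that modification, was at -1.01 (SE 0.25, adjusted p = 0.0223). Those chosen for their role did not pass. The RNA polymerase Polrmt was at 0.54 (adjusted p = 0.0593) and the packaging factor Tfam at -0.32 (adjusted p = 0.198). The RNA-binding Lrpprc, the poly(A) polymerase Mtpap, the processing factor Trmt10c and the methyltransferase Nsun4 were at -0.17, -0.07, -0.23 and 0.36.

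In macrophages none of 94 such genes was called by edgeR or by DESeq2, and 0 had an unadjusted p under 0.05 in edgeR's test. Between cell types 20 of 98 were higher and 54 lower in macrophages, with a median of -0.56, where 39.4% of all genes were higher and 34.3% lower. Mrpl12 was at -2.64, Atad3a at -2.14 and Hsd17b10, a subunit of mitochondrial RNase P, at -1.38, whereas the mitochondrial thymidine kinase Tk2 was at 1.95 and the stress and lysosome regulators Atf4 and Tfe3 at 1.96 and 2.31. Tfam at -1.65, Lrpprc at -1.60, Polrmt at -1.08 and Nsun4 at -0.69 were called lower in macrophages, and Mtpap at 0.23 and Trmt10c at -0.49 were not called.

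Nuclear genes for subunits of oxidative phosphorylation included those of complex II, which has no subunit in mitochondrial DNA. Of 74 tested in epithelium, 23 rose and 1 fell in cre_EC and 50 were not called, with a median log2 change of 0.25, against 5.64% of all genes higher and 3.53% lower. None of the 74 was called in macrophages by edgeR or DESeq2, with 5 at an unadjusted p under 0.05 in edgeR's test and a median of 0.08. Between cell types all 74 were lower in macrophages, with a median of -1.47, where 34.3% of all genes were lower. The 23 rises became 0 in males alone, with the ribosomal RNA share as a covariate and with all 14 libraries in one fit. Without cre_EC library 5 or 9 the count was 6 and 4.

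**Figure D5:**
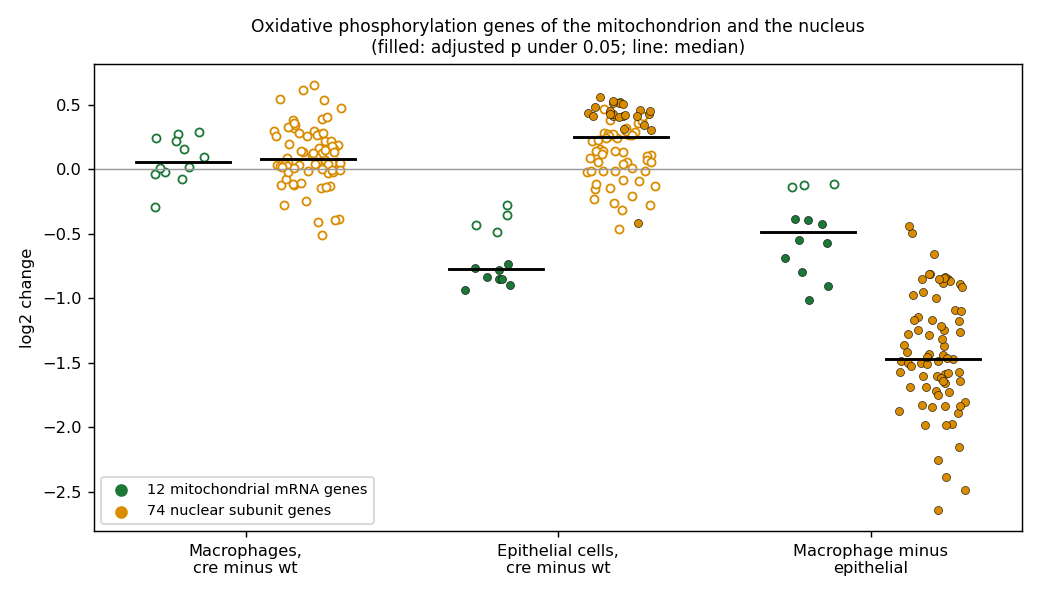
Log2 changes of 12 mitochondrial messenger RNA genes (7 of them summed with chromosome 1 copies) and of 74 nuclear genes for subunits of oxidative phosphorylation, in 3 comparisons. Points are genes and lines are medians. In epithelial cells the mitochondrial genes lie at a median of -0.77 and the nuclear genes at 0.25, and in the comparison of macrophages with epithelial cells both lie below 0.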

How the data were processed

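Per the file headers, the authors deposited whole-number counts and FPKM for 14 libraries. Over 13471 rows compared, the deposited FPKM were the counts scaled by 1 constant a gene and 1 a library. Per the submitters' processing notes the build was GRCm38, and DESeq2 1.24.0, Picard 2.19.2 and STAR 2.5.2b were used. How reads were counted, with which annotation and strand setting, and what was done with reads of several matches is not stated in the sources used here. Without strand, a gene and its antisense neighbour cannot be told apart, nor can identical copies. RNA was isolated with a column kit from sorted cells, and libraries were primed on poly(A), per the labels' protocols.

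All genes entered the tests, run on the counts in R 4.3.3 with edgeR 4.0.16 (TMM, filterByExpr with a minimum count of 10, robust quasi-likelihood F test, Benjamini-Hochberg adjusted p under 0.05 over all genes). Genotype was fitted within each cell type, and the difference between cell types and the difference of genotype effects on all 14 libraries. Shares and ratios per library were compared by exact two-sided permutation tests, adjusted over 12 tests. For depth, the 95% Wilson interval of the messenger RNA share of cre_EC library 9 was 2.93 to 2.95%, and intervals and floors cover counting error only. Alternatives were other size factors, DESeq2 1.42.0, limma 3.58.1 with voom or on log2(FPKM + 1), other filters, covariates, males only, a replicate block, and each library left out. Summing copy rows was chosen after seeing the data. The fits were tested on simulated data. Members and gene lists were chosen with earlier results of these data known. All 13 messenger and 2 ribosomal RNA genes are given by library, each transfer RNA gene that passed the filter is named, and of nuclear lists the 6 smallest p past the threshold plus 6 genes named for their role. Windows and copies were compared on GENCODE M21 transcripts.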

Additional observations from a re-analysis of the deposited data

Results flagged for a closer look

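The scan took 48 combinations of an epithelial group of 4 libraries with a gene or with a library share or ratio. In 7, all of them genes, 1 library stood apart from the other 3 by Dixon's ratio of its gap to the group's range. Chance gives about 1 in 20 for independent combinations, but these share libraries. Library 7 of wt_EC was low for mt-Rnr2 (ratio 0.935), mt-Nd2 (0.893) and mt-Nd6 (0.946). Library 8 of cre_EC was high for mt-Rnr2 (0.852) and low for mt-Tc (0.886). Library 9 of cre_EC was high for mt-Nd4l (0.910), and library 10 was low for mt-Tm (0.876). The genotype effect of mt-Rnr1 differed between macrophages and epithelial cells by 1.73 on the log2 scale.

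Rows of nuclear copies, which are no mitochondrial genes, held counts in every library. Their lowest counts were 29261 for Gm28437 (copy of mt-Co3), 23918 for Gm29216 (mt-Co1), 23135 for Gm10925 (mt-Atp6), 4169 for Gm28661 (mt-Co2) and 488 for Gm28438 (mt-Nd3), all on chromosome 1. On chromosome 2 they were 11035 for Gm13340 (mt-Co1), 1185 for Gm13341 (mt-Co2) and 71 for Gm13339 (mt-Nd2). Elsewhere Gm20594 (mt-Rnr2) held at least 1863, Gm11407 (mt-Nd5) 330 and Gm4076 (mt-Nd5) 181.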

How the results depend on the processing

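In macrophages 0 mitochondrial genes were called in every alternative run. In epithelium the count of 10 became 0 on log2(FPKM + 1) without a filter, in males only and with the ribosomal RNA share as a covariate, 5 with the GC and length trend removed and 1 with all 14 libraries in one fit. Leaving out each library gave 6 to 11. Rises of nuclear subunits, 23, became 0 in the same 3 settings and in the fit of all 14, and 13 with the trend removed, with 4 to 30 over libraries left out. Between cell types the count of 16 became 9 with a filter of 50 counts and 7 in males only. For the difference of effects the count of 1 became 5 with DESeq2, 2 without a filter, and 0 with RLE size factors, voom, log2(FPKM + 1) without a filter, sex or the ribosomal RNA share as a covariate, males only and the trend removed, and 0 to 2 over libraries left out. Calls of all genes in epithelium split as 765 higher and 478 lower, but as 1142 and 246 on log2(FPKM + 1).

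Samples of the same number did not deviate together in every pair (correlations between -0.032 and 0.086). With the replicate block 15 genes were called between cell types and 0 for the difference of effects. The block gave -1.33 percentage points for the messenger RNA share and -5.74 for the ribosomal RNA share between cell types. Each had p = 0.03125 in the exact test, the smallest it allows with the block, and adjusted p = 0.171. That smallest p can hardly pass the threshold after adjustment. In males only these were -0.861 and -3.53, and the log2 ratio of mt-Rnr1 to mt-Rnr2 was -0.00576, against 0.06 in all. Libraries left out gave -1.41 to -1.07, -5.82 to -4.64 and -0.0127 to 0.167. In epithelium the log2 ratio of ribosomal to messenger RNA then ran between -0.278 and 0.0825, and in macrophages the messenger RNA share between -0.279 and 0.0435, or 0.00734 without the cytosolic ribosomal RNA row. Mtpap between cell types was at -0.30 with the trend removed, against 0.23. The cause of these changes was not tested. The 22 transfer RNA rows held 131 to 540 counts a library in all, and 13 of them passed the filter in no comparison.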
